A study of Mus musculus with 20 samples.

Results

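The death-associated protein kinase (DAPK) family was examined in RNA-seq libraries of mouse abdominal aorta. Its members here are Dapk1, Dapk2, Dapk3 and Stk17b, taken by gene symbol and not by any measured value. They are 4 of the 15346 genes listed in the tables of wild-type (WT) libraries or of libraries labelled KO and given angiotensin II (Ang II), and 16 of their 25 annotated transcripts were listed, out of 53800 listed transcripts in all. Values are FPKM, the fragments assigned to a transcript per kilobase of its length, scaled to the depth of the library, and a gene's level is the sum over its listed Ensembl transcripts. The 20 libraries form 4 groups of 5: WT mice infused with saline, WT mice that received Ang II (500 ng/kg/min), and both treatments in mice labelled KO. Ang II, a hormone of blood pressure control, narrows arteries. The labels give no strain, age or sex and do not say which gene was removed or how, while the series title names DAPK1. The KO saline libraries are KO by title and genotype, although their description calls them WT, and the title was used. Libraries are named by their titles, in which NS marks the saline groups. The labels do not say that each library is a separate mouse, so p-values measure the spread between these libraries.

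The kinases of this family are calcium/calmodulin-regulated serine/threonine kinases or close relatives of them, which share the catalytic domain at the start of the protein and differ in what follows it. Dapk1 carries ankyrin repeats and a death domain and is known from cell death and autophagy, Dapk2 is a short calmodulin-regulated form, and Dapk3 (ZIP kinase) has a leucine zipper in place of the calmodulin switch. In smooth muscle Dapk3 is known to phosphorylate the myosin light chain and the targeting subunit of myosin phosphatase, which favours contraction. Stk17b (DRAK2) is the most distant member and is best known from lymphocytes.

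The 3 DAPK genes share an exon pattern that Stk17b does not. In Dapk1-202 and Dapk2-201 the exon lengths 222, 139, 130, 49, 27, 153 and 46 nt follow each other, and Dapk3-202 has the same run with the first pair joined in 1 exon of 361 nt. In Stk17b-201, 1 of 8 exons has a length of that run. Over this stretch of 766 nt, Dapk1 and Dapk2 had 74.0% of bases in common, Dapk1 and Dapk3 74.4%, and Dapk2 and Dapk3 76.1%. The 27-nt exon of the run, which codes for part of the catalytic domain, is shown because 1 of the Dapk3 transcripts described below lacks it. It lies at chr13:60718437-60718463 in Dapk1, chr9:66251075-66251101 in Dapk2 and chr10:81191042-81191068 in Dapk3 (GRCm38, plus strand), and capitals mark the 22 bases that all 3 genes share.
Dapk1: GAGCATcGGgGTaATaACCTAtATCCT
Dapk2: GAGCATtGGaGTcATcACCTAtATCCT
Dapk3: GAGCATtGGcGTcATcACCTAcATCCT

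Transcripts of 1 gene are told apart by short stretches, and those that the results turn on are printed here from GENCODE M21. Dapk1-202 and Dapk1-207 share 4998 nt, which is 99.8% of Dapk1-207. They part at chr13:60761863, where Dapk1-207 splices out 493 nt that Dapk1-202 keeps. Capitals mark the first 15 bases after that point.
Dapk1-202: ctcagtggtgtcccgGTGAGGGCAGCCTTG
Dapk1-207: ctcagtggtgtcccgGAGAGACTCCCATGC
Dapk3-205, a short transcript of 403 nt annotated as protein coding, joins the exons on either side of the 27-nt exon, which stands in capitals in Dapk3-207.
Dapk3-207: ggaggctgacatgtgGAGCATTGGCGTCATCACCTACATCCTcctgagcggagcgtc
Dapk3-205: ggaggctgacatgtgcctgagcggagcgtc

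The RefSeq table gives 3 start sites of Dapk3, called start A, start B and start C here, by which 6 of the 8 listed transcripts were grouped, and the sequences up to each are given because the sum of Dapk3 was split between them differently from library to library. Each runs over 100 bases before the start and, in capitals, the first 30 bases of the first exon, from RefSeq on GRCm38. Start A is at chr10:81182905-81183034, start B at chr10:81183163-81183292 and start C at chr10:81183818-81183947, all on the plus strand.
Start A: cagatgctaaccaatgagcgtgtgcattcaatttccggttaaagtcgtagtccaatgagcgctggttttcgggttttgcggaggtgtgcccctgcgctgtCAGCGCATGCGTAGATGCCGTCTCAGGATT
Start B: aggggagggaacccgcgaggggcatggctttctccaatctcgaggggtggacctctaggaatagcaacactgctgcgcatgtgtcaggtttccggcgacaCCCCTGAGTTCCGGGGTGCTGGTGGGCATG
Start C: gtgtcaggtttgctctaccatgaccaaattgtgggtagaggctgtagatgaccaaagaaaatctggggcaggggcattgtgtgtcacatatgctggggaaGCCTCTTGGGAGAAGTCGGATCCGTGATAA
In the 300-base RefSeq window around each start, the dinucleotide CG occurred 20 times at start A, 26 times at start B and 6 times at start C. Over 32851 such windows of all genes the median was 7, and 26.5%, 16.9% and 56.4% of them held at least as many CG as starts A, B and C. The windows of the other members held 38 for Dapk1, 28 for Dapk2 and 24 for Stk17b.

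Libraries held 59.0 to 74.8 megareads each, as computed from the whole-read steps in their FPKM. Levels were compared in 15 libraries, those of both WT groups and of KO Ang II, because the KO saline tables list 2025 transcripts against 49773 in the WT tables and hold 1 row of the family. The smooth muscle content of the libraries was checked with markers such as Acta2 and Myh11. Their summed level was 5567 to 14505 FPKM over the 15 libraries, with none at 0. This check does not tell the aorta from other smooth muscle. Transcripts of intestinal epithelium (Zg16, Reg3b and defensins) summed to 20.03 to 45.9 FPKM in all 5 libraries labelled KO Ang II and to 14.8 and 15.6 FPKM in libraries WTAngII580 and WTAngII581, and were at 0 in the other 8. They move with the KO Ang II label, so the KO Ang II minus WT Ang II difference of each gene sum is also given among the Ang II libraries that hold them. No WT saline library held them, so the differences from WT saline have no such value. Summed over all 9 intestinal markers with a value, levels were 4.47 to 8.59 FPKM in WT saline. The same sums were 7.24 to 39.5 FPKM in WT Ang II and 33.1 to 71.4 FPKM in KO Ang II.

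In these libraries Stk17b had the highest level per length of the family, followed by Dapk3, Dapk1 and Dapk2. The group means ran from 22.3 to 34.2 FPKM for Stk17b, 18.3 to 20.8 for Dapk3, 8.58 to 12.1 for Dapk1 and 4.43 to 7.17 for Dapk2. This order of all 4 held in 9 of the 15 libraries. Stk17b was above Dapk3 in all 10 WT libraries. Dapk3 was above Stk17b in 4 of the 5 libraries labelled KO Ang II, the exception being library KOAngII560. In those 4 the gap was smaller than the level of the intron-retaining Dapk3-203 (3.37 to 4.21 FPKM), which the Dapk3 sum includes. In reads, Stk17b was above Dapk3 in all 15 libraries (4122 to 9743 against 992 to 1979). Stk17b made up 40.8% to 57.6% of the family sum in the WT libraries and 35.9% to 49.0% in those labelled KO Ang II. Dapk1 was below Dapk2 in library WTAngII568 and library KOAngII628, and above Dapk3 in library WTAng_II536, so those neighbours in the order were not separated in every library. The order was noted in these values and was not tested.

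**Figure D1:**
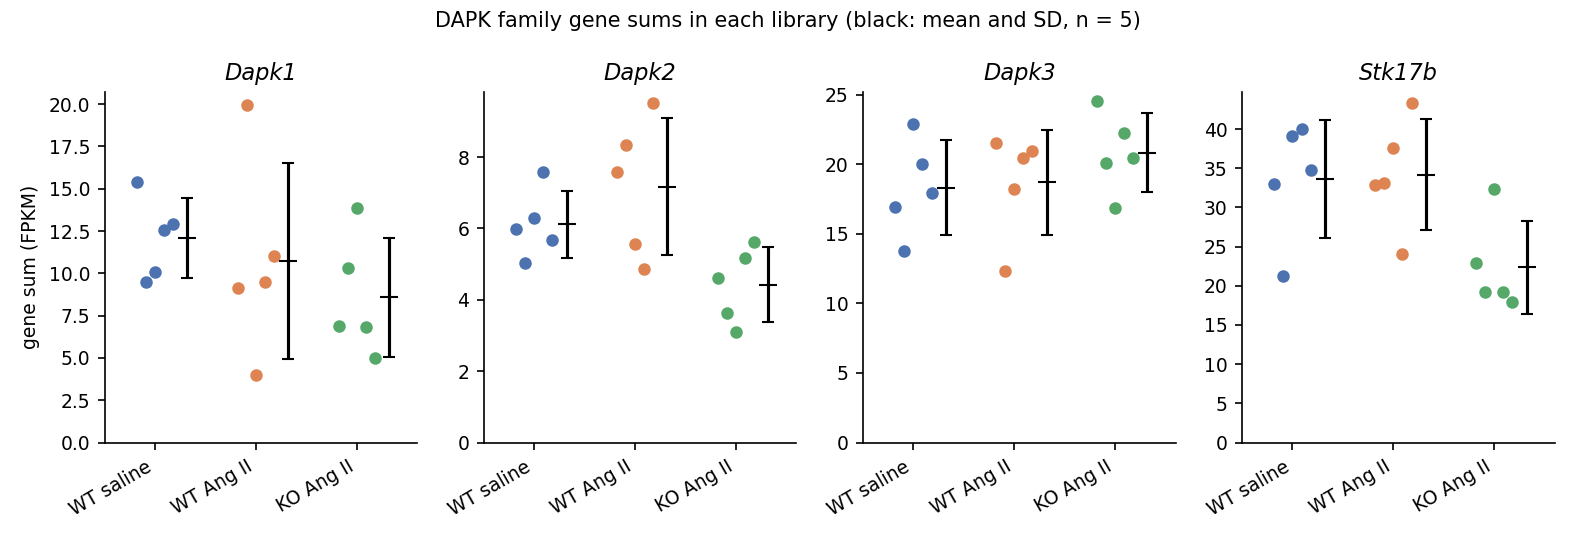
Gene sums in FPKM (y axis, from 0) of the 4 members in the 3 groups with full tables; each point is 1 library, and the black bars are the mean and SD of 5 libraries. The points of Stk17b and Dapk2 labelled KO Ang II sit lower on average, with overlapping ranges, and the Dapk1 points of WT Ang II run from 3.96 to 19.9 FPKM.

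Over all genes, limma on log2(FPKM + 1) called few differences at a Benjamini-Hochberg adjusted p of 0.05, and none in the family. Of 12643 genes tested it called 0% in WT Ang II against WT saline, 0% between the Ang II groups, and 0.103% (13 genes) in KO Ang II against WT saline, where 618, 1003 and 1058 genes had an unadjusted p under 0.05. Of those 13 called genes, 6 were markers of intestinal epithelium, of which 8 were tested. With voom on reads worked out from the values the counts of called genes were 0, 0 and 17. The counts moved when some libraries were left out: to 1 in the first comparison without library WTNS_550, to 7 and 2 in the second without libraries WTAngII580 and WTAngII581, and to 8 and 7 in the third without library WTNS_547 and library KOAngII537. All 12 comparisons of a member between 2 groups had overlapping ranges. Ranges did not overlap for 0.997%, 1.12% and 1.83% of all genes in the 3 comparisons. The 3 comparisons share groups and are therefore not independent of each other. WT Ang II is added in the first and subtracted in the second. KO Ang II and WT saline differ in both genotype label and infusion, so their parts cannot be told apart in that comparison alone.

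Dapk1, the kinase named in the series title, lies on chromosome 13 (60601947 to 60763191, plus strand; ENSMUSG00000021559.14). Its sum was 15.4, 9.48, 10.1, 12.6 and 12.9 FPKM in libraries WTNS_369, WTNS_373, WTNS_523, WTNS_547 and WTNS_550. In libraries WTAng_II519, WTAng_II536, WTAngII568, WTAngII580 and WTAngII581 it was 9.16, 19.9, 3.96, 9.504 and 11.1 FPKM. The libraries labelled KO Ang II, which are KOAng_II402, KOAngII537, KOAngII560, KOAngII612 and KOAngII628, had 6.91, 10.3, 13.8, 6.85 and 4.997 FPKM. Dapk1 reads were thus present in every library labelled KO Ang II (1190 to 5055 reads), and all 5 lay within the range of the WT Ang II libraries. Values per transcript cannot show whether a single exon is missing, so they do not test the label. Means were 12.1 ± 2.39, 10.7 ± 5.80 and 8.58 ± 3.51 FPKM (SD, n = 5), and the coefficient of variation was 19.7% in WT saline, 54.1% in WT Ang II, with 40.9% in KO Ang II. libraries WTAng_II536 and WTAngII568 held the highest and the lowest level of all 15.

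No difference in Dapk1 passed the test. On the log2(FPKM + 1) scale, which understates folds of low genes, WT Ang II minus WT saline was -0.29 (SE 0.32, adjusted p = 0.945). KO Ang II minus WT Ang II was -0.22 (SE 0.32, 95% interval -0.91 to 0.47, adjusted p = 0.847), and KO Ang II minus WT saline was -0.50 (adjusted p = 0.738). Among the Ang II libraries with intestinal transcripts the second difference was -0.31. It was 0.027 without library WTAng_II536, -0.49 without library WTAngII568 and -0.40 without library KOAngII560. It was -1.15 with only the 1 transcript listed for all 15 libraries (adjusted p = 0.674), where KO Ang II minus WT saline was -1.44 (adjusted p = 0.438). By voom, which weighs reads and not FPKM, they were -0.51 and -0.85 (adjusted p = 0.718 and 0.647). In bulk tissue, fewer cells of a type and less RNA per cell cannot be told apart in any of these values.

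The tables differ in which Dapk1 transcripts they list. The WT tables list only Dapk1-202 (ENSMUST00000077453, 5491 nt, 4290 nt coding). The KO Ang II tables also list Dapk1-207 (ENSMUST00000226059, 5009 nt, 4326 nt coding) and Dapk1-205 (ENSMUST00000225632), an intron-retaining transcript of 485 nt at the start of the gene. A transcript can be absent from the WT tables with a low level there: the lowest row there still reaches 0.50002 FPKM as the larger of its saline and Ang II means. In libraries KOAng_II402, KOAngII537, KOAngII560, KOAngII612 and KOAngII628, Dapk1-202 was at 4.51, 9.46, 0.514, 6.51 and 2.73 FPKM. Dapk1-207 was at 0.344, 0.0223, 13.3, 0.196 and 0.182 FPKM. In library KOAngII560 nearly the whole sum (96.3%, 4850 reads) was assigned to Dapk1-207, whose share was 0.2% to 5.0% in the other 4. The 3′ splice shown above, where Dapk1-207 resumes at position 60762357, is the main stretch by which the values of these nearly identical transcripts can be told apart. Dapk1-202 and Dapk1-207 together gave 4.85, 9.49, 13.8, 6.71 and 2.92 FPKM, so library KOAngII560 held the most Dapk1 of its group when both were counted and the least when only Dapk1-202 was.

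Dapk1-205 gave 2.06, 0.836, 0, 0.140 and 2.08 FPKM in the same libraries, which was 70, 29, 0, 5 and 71 reads. It made up 29.8% and 41.6% of the Dapk1 sum in libraries KOAng_II402 and KOAngII628 and at most 8.1% in the rest. These reads lie on a short transcript, so few of them add much FPKM to the gene sum. In the fit of all 46490 transcripts listed for the 15 libraries, Dapk1-202 had a difference of -1.15 in KO Ang II minus WT Ang II (SE 0.46, p of 0.024, adjusted p = 0.760) and -1.44 in KO Ang II minus WT saline (p of 0.00696, adjusted p = 0.725). Neither passed, and without library KOAngII560 they were -0.74 and -1.03. That fit called 0.0043%, 0% and 0.0194% of transcripts in the 3 comparisons, none of them of this family, with 2589, 3011 and 2637 at an unadjusted p under 0.05.

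**Figure D2:**
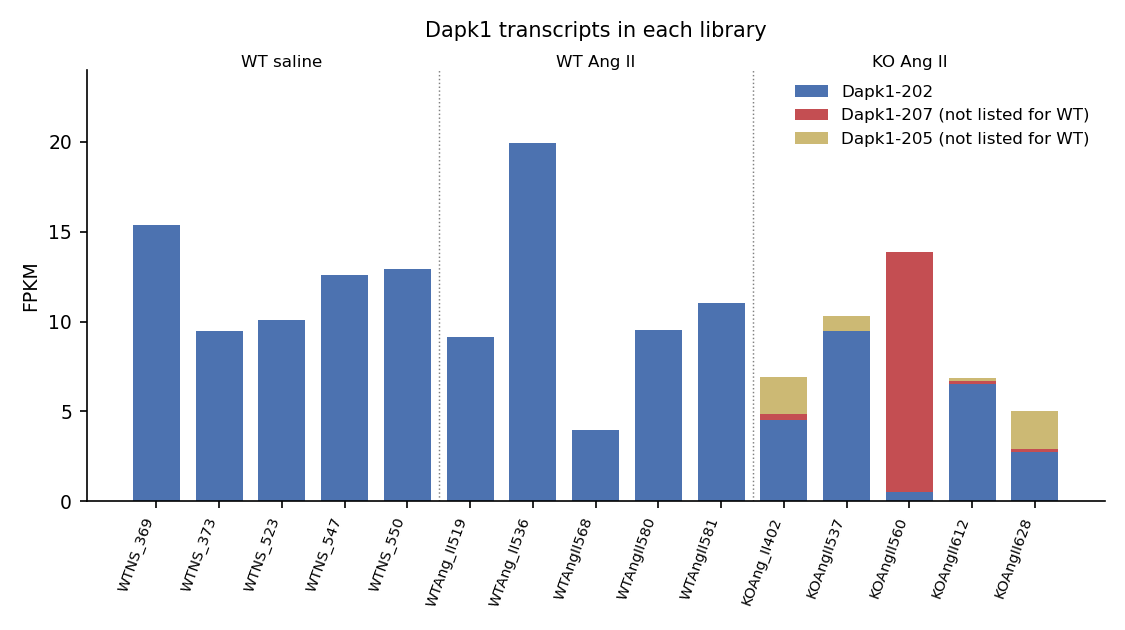
FPKM (y axis, from 0) of the listed Dapk1 transcripts in each of 15 libraries, stacked to the gene sum; the dotted lines part the groups. Dapk1-207 fills 96.3% of the bar of library KOAngII560 and at most 5.0% of the other 4 KO Ang II bars.

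Dapk2, the calmodulin-regulated short form, lies on chromosome 9 (66158223 to 66272242, plus strand; ENSMUSG00000032380.8) and was the lowest of the family by group mean. Its sum was 5.98, 5.03, 6.29, 7.57 and 5.68 FPKM in WT saline and 7.58, 8.35, 5.56, 4.87 and 9.504 FPKM in WT Ang II, in the library order given for Dapk1. It was 4.61, 3.63, 3.09, 5.18 and 5.63 FPKM in the libraries labelled KO Ang II. Of these, 3 lay below every WT Ang II library, and the remaining pair overlapped the lowest WT Ang II values. KO Ang II minus WT Ang II was -0.58 (SE 0.18, 95% interval -0.97 to -0.19), a ratio of means of 0.617. Its p of 0.00645 did not pass adjustment over all genes (adjusted p = 0.606), and 1.02% of genes had a smaller p. The ranges of KO Ang II and WT saline overlapped too, with a difference of -0.40 (SE 0.18, p of 0.0435, adjusted p = 0.585). WT Ang II minus WT saline was 0.18 (SE 0.18, adjusted p = 0.942).

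Nearly all Dapk2 signal came from Dapk2-201 (ENSMUST00000034944, 1772 nt), the protein-coding transcript and the only 1 listed for all 15 libraries. Its means were 5.55 ± 0.956, 6.82 ± 1.83 and 4.43 ± 1.06 FPKM (SD, n = 5) for WT saline, for WT Ang II and for KO Ang II. The intron-retaining Dapk2-203 was listed for WT only, at 0.346 to 0.785 FPKM with saline and 0.166 to 0.453 FPKM with Ang II (7 to 28 reads). Dapk2-201 alone had a difference of -0.52 between KO Ang II and WT Ang II (SE 0.20, adjusted p = 0.760). Against WT saline, Dapk2-201 alone had -0.28 (SE 0.20, p of 0.182, adjusted p = 0.944), where the sum with the unlisted Dapk2-203 taken as 0 in KO Ang II had -0.40.

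Stk17b, the distant member known from lymphocytes, lies on chromosome 1 (53755506 to 53785224, minus strand; ENSMUSG00000026094.14) and had 4122 to 9743 reads per library. Its sum was 32.9, 21.3, 39.1, 40.0 and 34.8 FPKM in WT saline and 32.9, 33.1, 37.6, 24.01 and 43.4 FPKM in WT Ang II. In the libraries labelled KO Ang II it was 22.9, 19.2, 32.4, 19.2 and 17.97 FPKM. There 4 of 5 lay below every WT Ang II library, and the exception was library KOAngII560, in which Dapk1-207 took most of the Dapk1 sum. KO Ang II minus WT Ang II was -0.60 (SE 0.20, 95% interval -1.03 to -0.17), a ratio of means of 0.653. The p of 0.00978 did not pass adjustment (adjusted p = 0.610), and 1.57% of genes had a smaller p. Against WT saline the difference was -0.57 (SE 0.20, p of 0.0133, adjusted p = 0.441), and 3 of 5 libraries lay below every WT saline value. The WT groups had nearly equal means, 33.6 ± 7.48 and 34.2 ± 7.12 FPKM (SD, n = 5), with a difference of 0.031 (SE 0.20, 95% interval -0.40 to 0.46, adjusted p = 0.985).

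The Stk17b signal was almost all Stk17b-201 (ENSMUST00000027263, 3293 nt), the full-length coding transcript. Of the FPKM of the pair listed for all 15 libraries it took 97.4% ± 0.46 in WT saline, 97.4% ± 0.72 in WT Ang II, with 97.1% ± 0.32 in KO Ang II (SD, n = 5). The other transcript of that pair, Stk17b-203, is a single exon with a retained intron and was at 0.437 to 1.38 FPKM. Stk17b-202, a short coding transcript, was listed for WT only, at 0 to 0.969 FPKM. The Stk17b difference thus lay in its main transcript, at -0.58 (SE 0.21, adjusted p = 0.760).

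Other cell types were read beside the Stk17b and Dapk2 differences from lists of their markers, none of which had a member past the test between the Ang II groups. Among the Ang II libraries with intestinal transcripts, 5 against 2, the Stk17b difference was -0.55 and the Dapk2 difference -0.56 (p of 0.109 and 0.1, both 1.0 after adjustment). The summed smooth muscle markers were 6971 to 14505 FPKM in WT Ang II and 5567 to 10133 in KO Ang II, with 7 of 8 lower in KO Ang II. All 6 fibroblast markers, all 5 tested mast cell markers and all 3 erythroid markers were lower in KO Ang II, as were 4 of 5 skeletal muscle, 5 of 8 macrophage and 5 of 7 endothelial markers, with Pecam1 at -1.23 (SE 0.40, adjusted p = 0.610). All 5 white adipocyte, all 5 Schwann cell, all 3 tested granulocyte, both tested B cell and all 8 tested intestinal markers were higher, and 4 of 5 brown adipocyte and 5 of 6 sympathetic neuron markers. The summed mast cell markers were 21.4 to 61.7 FPKM in WT Ang II and 9.14 to 32.9 in KO Ang II, the white adipocyte markers 857.7 to 3939 and 1587 to 4092, the Schwann cell markers 12.8 to 44.9 and 23.99 to 124.4, and all these ranges overlapped. Of the T and NK cell markers only Cd2 had a value, at 0.192 to 1.74 FPKM in WT Ang II and 0.260 to 2.27 in KO Ang II. Cd3d, Cd3e, Cd3g, Lck, Nkg7 and Trac had no transcript listed in both the WT and the KO Ang II tables. They were not looked up in each kind of table alone, and an unlisted transcript can still have a low level. The part of the other cell types in the Stk17b and Dapk2 values was not tested.

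**Figure D3:**
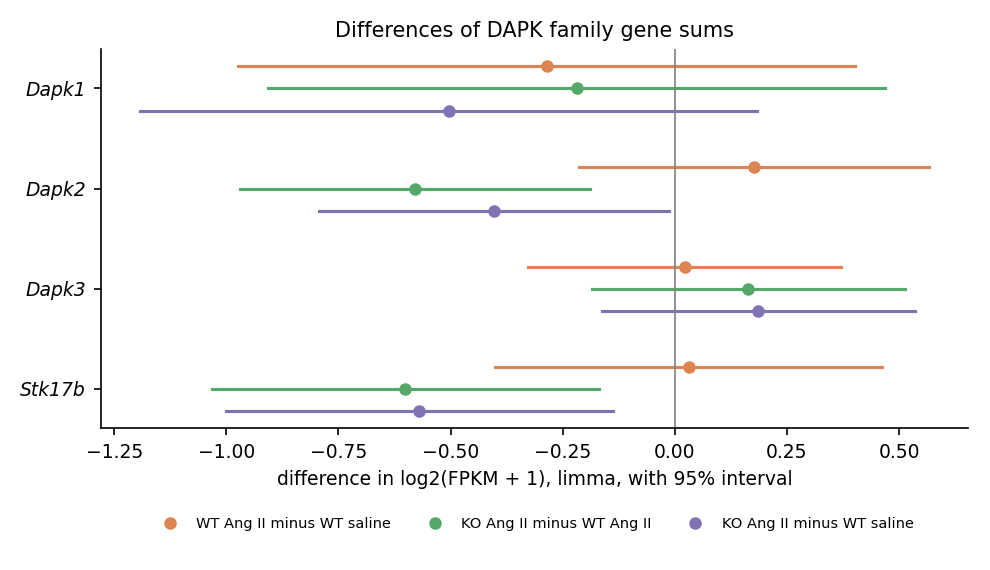
Differences of the gene sums on the log2(FPKM + 1) scale (x axis) for each member, from limma; points are the estimates and lines the 95% intervals. The KO Ang II minus WT Ang II intervals of Dapk2 (-0.97 to -0.19) and Stk17b (-1.03 to -0.17) leave out 0 before adjustment over 12643 genes, and no difference passed after it.

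Dapk3, the ZIP kinase that acts on myosin in smooth muscle, lies on chromosome 10 (81183005 to 81193197, plus strand; ENSMUSG00000034974.13) and had a coefficient of variation of 13.7% to 20.1% within the groups. It was 16.9, 13.8, 22.9, 19.997 and 17.9 FPKM in WT saline and 21.5, 12.4, 18.2, 20.4 and 20.96 FPKM in WT Ang II. The libraries labelled KO Ang II had 24.6, 20.1, 16.8, 22.2 and 20.5 FPKM. Their sums include Dapk3-205 at 0.451 to 1.01 FPKM, which is not listed for WT and was taken as 0 there. The groups overlapped widely, with means of 18.3 ± 3.42, 18.7 ± 3.76 and 20.8 ± 2.85 FPKM (SD, n = 5). WT Ang II minus WT saline was 0.022 (SE 0.16, 95% interval -0.33 to 0.37, adjusted p = 0.987), and it was -0.088 without the pair of libraries that held intestinal transcripts. KO Ang II minus WT Ang II was 0.16 (SE 0.16, 95% interval -0.19 to 0.51, adjusted p = 0.764), and -0.001 among the libraries that held them. KO Ang II minus WT saline was 0.19 (adjusted p = 0.839).

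**Figure D4:**
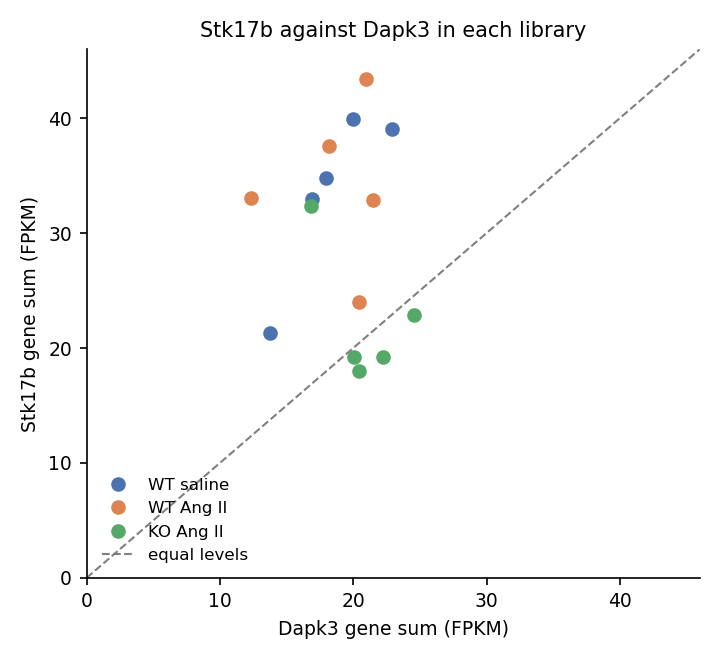
Stk17b gene sum (y axis, FPKM) against Dapk3 gene sum (x axis, FPKM), with 1 point per library and a dashed line of equal levels. All 10 WT points lie above the line, and 4 of 5 points labelled KO Ang II lie just below it.

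The Dapk3 transcripts varied more than their sum. Start A belongs to Dapk3-202, a full-length coding transcript of 1730 nt, and the intron-retaining Dapk3-203 and Dapk3-211, which begin within its first exon, were counted with it. Start B belongs to the coding Dapk3-201 and Dapk3-207, of which Dapk3-207 is cut off at 844 nt, and start C to the coding Dapk3-209. Start B transcripts were at 0 in libraries WTNS_373 and WTNS_550 and in library KOAngII560. In the other 12 libraries they took 12.6% to 57.9% of the Dapk3 sum, the most in library WTAngII580. Their share was 17.2% ± 16.3 in WT saline, 33.3% ± 17.9 in WT Ang II, with 29.1% ± 18 in KO Ang II (SD, n = 5), so the spread within a group was as large as the gaps between the groups. Start A took 49.6% ± 12.8, 33.3% ± 8.3 and 31.1% ± 9.7 in the same groups, and start C 26.7% ± 8.8, 28.2% ± 15.3 and 32.6% ± 7.6. For start A the gaps from WT saline were larger than the SDs. Its ranges overlapped, at 36.8% to 67.1%, 23.2% to 45.1% and 21.8% to 47.4%. Shares by start were not tested. The short Dapk3-205 and Dapk3-210 begin inside the gene, at none of the 3 starts, and took the remaining 3.7% to 9.9%. Dapk3-205 is not listed for WT, so it counts only in the KO Ang II shares.

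Dapk3-207 carried most of start B. It was at 3.20, 0, 6.16, 5.42 and 0 FPKM in WT saline, at 5.65, 1.06, 3.43, 11.5 and 8.89 FPKM in WT Ang II, and at 10.6, 7.09, 0, 4.76 and 7.31 FPKM in the libraries labelled KO Ang II. All of its 844 nt are also in Dapk3-201 and 95.5% of them in Dapk3-202, so its level rests on how reads of shared exons were assigned. Its share of the Dapk3 transcripts listed for all 15 libraries was 15.9 points higher in WT Ang II than in WT saline (exact permutation test, two-sided, p = 0.183, adjusted p = 0.726 over 24 shares). The only share under 0.05 before adjustment was that of Dapk3-210, a short intron-retaining transcript, at 4.25% ± 0.93 in KO Ang II and 6.57% ± 2.01 in WT saline (n = 5, exact permutation p = 0.0159, adjusted p = 0.381). The smallest p that 5 against 5 libraries allow is 0.00794. The start C transcript Dapk3-209 was 4.67 ± 1.17, 4.88 ± 1.97 and 6.69 ± 1.13 FPKM (SD, n = 5), with a difference of 0.46 between KO Ang II and WT Ang II (SE 0.26, adjusted p = 0.767).

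**Figure D5:**
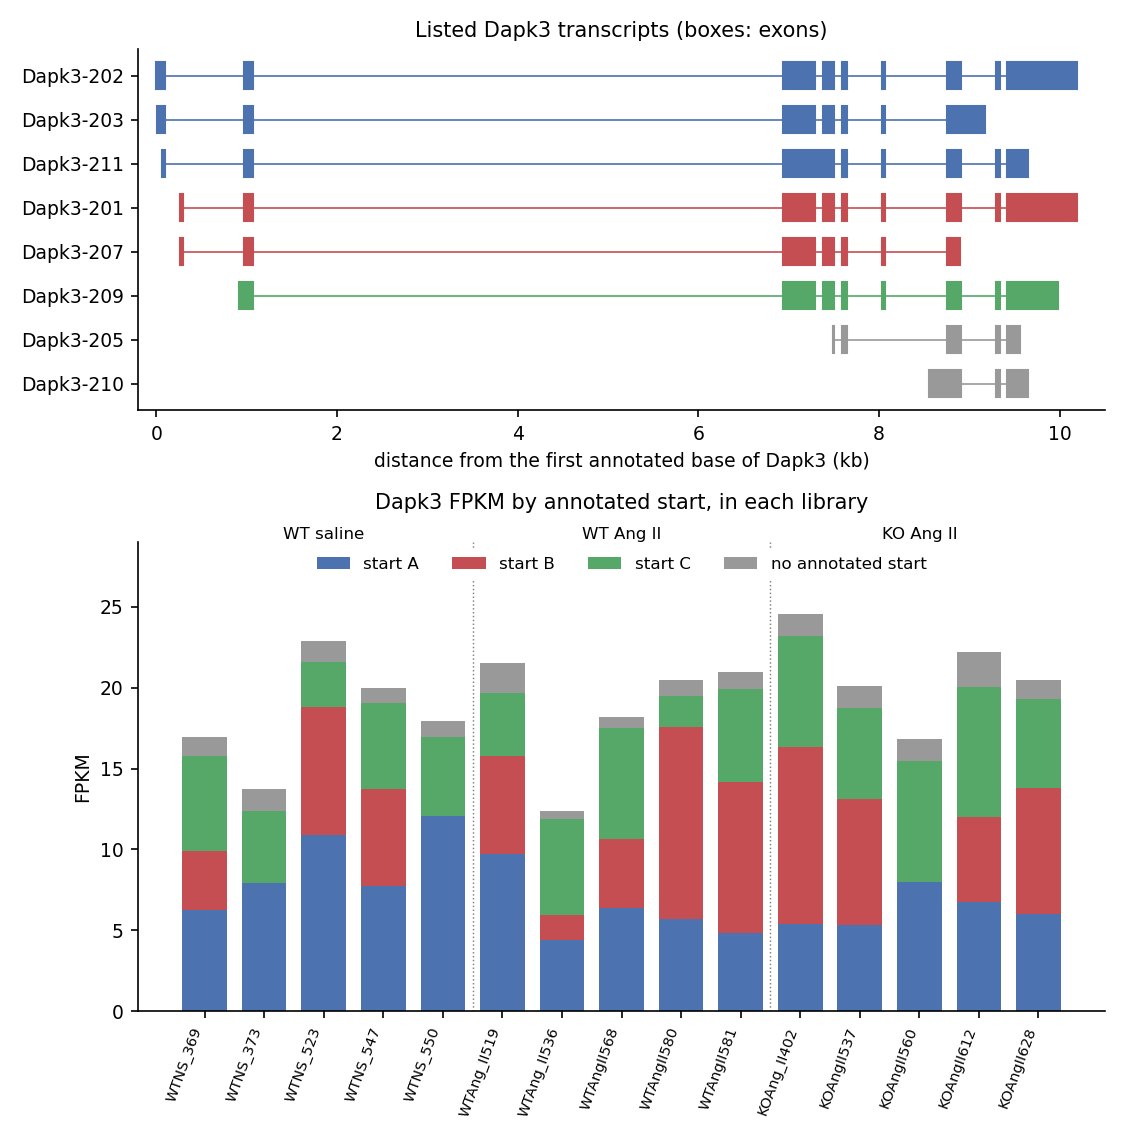
Top, exons (boxes) of the 8 listed Dapk3 transcripts by distance in kb from the first annotated base of the gene, coloured by start. Bottom, the Dapk3 FPKM (y axis, from 0) of each library split by the same starts, where libraries WTNS_373 and WTNS_550 and library KOAngII560 have no start B part.

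Dapk3-205, the transcript that skips the 27-nt exon, was the only row of the family in the KO saline tables. Its values there were 0, 1.89, 0, 0 and 0.203 FPKM in libraries KONS_387, KONS_412, KONS_555, KONS_608 and KONS_627, which was 0, 53, 0, 0 and 6 reads. In the libraries labelled KO Ang II it was at 0.637, 0.451, 0.650, 1.01 and 0.459 FPKM (13 to 30 reads). It was thus in all 5 libraries labelled KO Ang II and in 2 of 5 labelled KO saline, 1 of which was above every KO Ang II value. The WT tables do not list Dapk3-205, and its KO saline and KO Ang II values were not compared by a test. The lowest row of the WT tables reaches 0.50002 FPKM as the larger of its saline and Ang II means. The KO Ang II mean of Dapk3-205 was 0.642 FPKM, so a WT level not far below it could also be unlisted. All 403 nt of Dapk3-205 also lie in Dapk3-202, so only reads across the junction shown above belong to it alone.

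Genes linked to the family were read from 4 lists and described by counts, without a test of the list. None of their genes passed in any comparison, where 0%, 0% and 0.103% of all genes did. Of 24 close kinase relatives 15 were tested. Of these, 13 were higher in WT Ang II than in WT saline (median difference 0.11, against 0.014 over all genes). In KO Ang II, 12 were lower than in WT Ang II (median -0.19, against -0.0076). Both counts rest on the same WT Ang II libraries, so they tend to oppose each other. Between KO Ang II and WT saline, 9 were higher and 6 lower (median 0.037, against 0.016). Mylk2, a myosin light chain kinase, had the largest difference between KO Ang II and WT Ang II (-0.82, SE 0.27, adjusted p = 0.610). It was 5.78 to 8.08 FPKM in WT Ang II and 2.30 to 4.66 in KO Ang II. These ranges did not overlap, as for 1.12% of all genes. Of 5 tested skeletal muscle markers, 4 were lower in the same comparison, with sums of 2.48 to 167.4 and 4.29 to 33.6 FPKM. Their part in the Mylk2 value was not tested. In that comparison Kalrn, an exchange factor with a kinase domain, had a difference of -0.65 (SE 0.30) and Speg -0.41 (SE 0.56). Mylk, the smooth muscle myosin light chain kinase, had 0.50 (SE 0.72), with 6.397 to 226.8 FPKM in WT saline alone. Camk1, a calmodulin-dependent kinase, had the second highest mean of the list, 34.8 FPKM, and a difference of -0.19 (SE 0.16).

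Of 29 substrates and partners 27 were tested, and 18 were lower in KO Ang II than in WT Ang II (median -0.12). Cdkn1a, the cell cycle inhibitor p21, had the smallest p of the list: it was 90.1 to 178.1 FPKM with saline and 50.7 to 125.5 with Ang II in WT, against 40.7 to 73.3 in KO Ang II. Its KO Ang II and WT saline ranges did not overlap, as for 1.83% of all genes, at a difference of -1.28 (SE 0.25, adjusted p = 0.104). That comparison changes label and infusion together. For Cdkn1a, WT Ang II minus WT saline was -0.68 (SE 0.25, adjusted p = 0.941). Its KO Ang II minus WT Ang II difference was -0.59 (SE 0.25, adjusted p = 0.621). Myl9, the smooth muscle myosin light chain that Dapk3 is known to phosphorylate, had a difference of -0.55 between KO Ang II and WT Ang II (SE 0.27, adjusted p = 0.621). Ppp1r14a, the myosin phosphatase inhibitor CPI-17, had -1.12 with an SE of 0.89, since its levels ran from 6.26 to 121.5 FPKM over the 15 libraries. Cdc5l, a splicing factor, had 0.51 (SE 0.53), and Rps6, a ribosomal protein, -0.15 (SE 0.12).

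Of 27 regulators 26 were tested, with 16 higher and 10 lower in KO Ang II than in WT Ang II (median 0.045). Uchl1, a deubiquitinating enzyme abundant in neurons, was 14.9 to 49.4 FPKM in WT Ang II and 40.8 to 193.0 in KO Ang II (1.252, SE 0.48, adjusted p = 0.621). Of 6 sympathetic neuron markers, 5 were higher in the same comparison, with sums of 10.1 to 129.9 and 2.73 to 787.7 FPKM, and their part in the Uchl1 value was not tested. Rock2, a kinase that acts on myosin phosphatase, had 1.06 (SE 0.67), Unc5a, a netrin receptor, 0.71 (SE 0.30) and Mib1, a ubiquitin ligase for Dapk1, -0.69 (SE 0.53). The chaperone Hsp90ab1 and the protease Ctsb were the most abundant regulators, at means of 416.6 and 239.5 FPKM with differences of 0.13 (SE 0.12) and 0.17 (SE 0.11). Calm2 and Calm3, which encode the calcium sensor of Dapk1 and Dapk2, had differences of 0.0074 (SE 0.18) and -0.0007 (SE 0.16).

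The members did not follow each other closely across libraries. Pearson's r of log2(FPKM + 1) over 15 libraries was 0.56 between Dapk2 and Stk17b and -0.50 between Dapk1 and Dapk3, and -0.10 to 0.39 for the other 4 pairs. The libraries share their groups, depth and tissue make-up, so r is given as a description. By the same measure the tested genes were ranked, leaving out unnamed gene models (Gm and Rik names), Xist and ribosomal protein pseudogenes. The levels most like Stk17b were those of Peli1 (0.93), Nxt2 (0.93) and Pygm (0.91), and the most opposite those of Zfp703 (-0.89), Abhd11 (-0.89) and Psmb2 (-0.88). Most like Dapk1 were Phactr4 (0.89), Trappc5 (0.84) and Hmgn5 (0.82), and most opposite Fbxl18 (-0.81), Tmem250-ps (-0.75) and Twist1 (-0.74). Most like Dapk2 were Clasrp (0.85), Itgb3 (0.82) and Ttc5 (0.81), and most opposite Nmral1 (-0.88), Gse1 (-0.88) and Polr3g (-0.85). Most like Dapk3 were Ank (0.85), Psmg2 (0.84) and Bbs7 (0.84), and most opposite Atp2a3 (-0.86), Lmo2 (-0.86) and Dhx35 (-0.86). No gene stood in more than 1 of these sets.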

How the data were processed

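RNA from mouse abdominal aorta was sequenced in 20 libraries, made from 1 µg of total RNA with a NEBNext Ultra kit per the labels. The deposited values are FPKM per transcript, as computed by the authors; the unit was inferred from the values, since value times length times depth gave whole reads within 0.05 for 97.6% to 99.1% of values below 50 reads. The submitters' processing notes name bcl2fastq, FastQC, fastp and mm10, with aligner, assembler and counter not given in the sources used here. Names and positions came from GENCODE M21, which held 32618 of 32654 Ensembl transcripts of the WT tables and 32908 of 32945 of the KO Ang II tables.

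FPKM was summed per gene, with an unlisted transcript taken as 0. The 12643 genes with a transcript in both kinds of table (of 14583) and a mean of at least 1 FPKM were fitted with limma 3.58.1 (R 4.3.3, trend and robust options) on log2(FPKM + 1), 15 libraries in 1 model, with Benjamini-Hochberg adjustment over all. The script was tested on simulated data. Shares of transcripts were compared by exact permutation over 252 splits (SciPy 1.17.1). The members and lists were chosen with earlier results of these data known. Named genes are the members, their transcripts, the 3 most alike and 3 most opposite genes per member, and of each list up to 4 genes with the largest difference between KO Ang II and WT Ang II and the 2 with the highest mean. The 17119 transcripts of the WT tables that the authors named MERGE have no gene name in the tables and entered the transcript fit only. A planned edgeR fit was not run, because the values are not counts; voom on the worked-out reads was chosen in its place after seeing the data. The values of 1 gene of the lists are not reported here, although it is counted with its list.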

Additional observations from a re-analysis of the deposited data

Results flagged for a closer look

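In 53 groups of 5 values of the family, 3 had a library far from the rest. About 1 in 20 groups of independent normal values would pass the limit used. The groups here hold zeros and include gene sums beside their own transcripts, so that rate may not apply to them. Dapk1-207 was at 13.3 FPKM in library KOAngII560 and at 0.022 to 0.344 FPKM in the other 4. Stk17b-203 was at 1.07 FPKM in the same library (1.065 before rounding) and at 0.449 to 0.605 FPKM in the others. Dapk3-205 was at 1.89 FPKM in library KONS_412 and at 0 to 0.203 FPKM in the other 4 of that group. KO saline entered no comparison, and its values of Dapk3-205 above 0 were those of libraries KONS_412 (1.89 FPKM, 53 reads) and KONS_627 (0.203 FPKM, 6 reads). The WT tables do not list Dapk3-205, which can mean a low level there and not absence.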

How the results depend on the processing

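No member passed the threshold under any of the alternatives run, which include leaving out each library. The lowest adjusted p by limma for Stk17b was 0.116, in KO Ang II minus WT saline. For Dapk2 it was 0.131, in KO Ang II minus WT Ang II, and both came with sample quality weights. The Stk17b and Dapk2 differences in KO Ang II minus WT Ang II were -0.738 to -0.511 and -0.691 to -0.481 over the fits without 1 library. Over the other settings they were -0.699 to -0.546 and -0.674 to -0.449, so these kept their direction. Differences near 0 changed sign. Dapk3 in WT Ang II minus WT saline was -0.044 by voom and -0.088 in libraries free of intestinal transcripts, and in KO Ang II minus WT Ang II it was -0.001 among libraries with them. Without 1 library at a time, WT Ang II minus WT saline ran from -0.12 to 0.148 for Stk17b and from -0.07 to 0.156 for Dapk3, and KO Ang II minus WT Ang II from -0.492 to 0.027 for Dapk1.

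Genes called numbered 0 to 1, 0 to 7 and 7 to 15 in the 3 comparisons without 1 library at a time, against 0, 0 and 13. They were 30 in KO Ang II minus WT saline with sample quality weights, 2 in WT Ang II minus WT saline in libraries free of intestinal transcripts, and 6 in KO Ang II minus WT Ang II among libraries with them. Transcripts called were 2, 0 and 9; they were 4, 3 and 20 with only the groups compared in the model, 3 in the last comparison with a pseudocount of 0.1, and 0 to 4, 0 to 4 and 1 to 9 without 1 library at a time.

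For transcripts, a pseudocount of 0.1 gave -0.003 for Stk17b-203 in WT Ang II minus WT saline (quantile normalization -0.045) and 0.228 for Dapk3-201 in KO Ang II minus WT saline. Leaving out 1 library gave, in WT Ang II minus WT saline, -0.113 to 0.157 for Stk17b-201, -0.085 to 0.273 for Dapk3-201, -0.079 to 0.103 for Stk17b-203, -0.138 to 0.23 for Dapk3-209 and -0.537 to 0.135 for Dapk3-211. In KO Ang II minus WT Ang II it gave -0.152 to 0.038 for Dapk3-201, -0.532 to 0.457 for Dapk3-207, -0.181 to 0.05 for Dapk3-210 and -0.659 to 0.013 for Dapk3-211. In KO Ang II minus WT saline it gave -0.17 to 0.188 for Dapk3-201, -0.17 to 0.009 for Dapk3-202 and -0.408 to 0.042 for Dapk3-203. With unlisted transcripts counted as 0, the Stk17b-201 share differed by 1.04 points in KO Ang II minus WT Ang II (-0.26 otherwise) and 1.47 in KO Ang II minus WT saline (-0.22 otherwise), because Stk17b-202 is listed for WT only. The cause of the other changes was not tested. No paired analysis was possible because no library number is shared between groups. Rows of 5 to 71 reads (Dapk1-205, Dapk3-205, Dapk2-203) carry large counting error.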
